A study of Mus musculus with 39 samples.

Results

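The interferon regulatory factors are a family of transcription factors that bind interferon-stimulated response elements in DNA. This account follows 8 of them, Irf1, Irf2, Irf3, Irf4, Irf5, Irf7, Irf8 and Irf9, taken as the rows whose Ensembl identifiers carry these symbols in the GENCODE M21 annotation, out of 55487 genes listed. The RNA came from microglia, the resident macrophages of the brain, of the striatum, sorted as live, CD11b+, CD45-low and P2RY12+ cells from 8- to 10-week-old males. The labels give a prenatal term, CON (control) or MIA (maternal immune activation), and a second term, CON or PLX, which they do not define. Each of the 4 combinations was studied 18 hours after an intraperitoneal injection of saline or of lipopolysaccharide (LPS, a bacterial cell wall component) at 4500 endotoxin units per gram of body weight. The labels give no strain and no agent for the prenatal exposure.

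With the prenatal term first, there were 4 CON:CON, 4 MIA:CON, 4 CON:PLX and 3 MIA:PLX saline libraries, against 4, 6, 6 and 6 LPS libraries in the same order. These 37 libraries held 1510020 to 5746239 estimated counts. Another 2 libraries whose titles say exclude were left out. Nothing in the labels says that replicates came from separate animals, so a p-value here measures the spread among libraries, which may be technical.

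Members of the family divide the work of the interferon response. Irf3, already present in resting cells, is activated by phosphorylation downstream of Toll-like receptor and nucleic acid sensor signalling, and drives the first type I interferon transcripts. Irf7 is itself an interferon-induced gene and amplifies that output. Irf9 is a subunit of ISGF3, the complex that carries the signal of the type I interferon receptor to its target genes. Irf1 is induced by interferon gamma and NF-kB and activates antiviral and antigen presentation genes, while Irf2 binds the same sites and is known mainly as its antagonist. Irf5 acts downstream of MyD88 and drives inflammatory cytokine genes. Irf8 pairs with PU.1 and is needed for microglial and myeloid identity, and the related Irf4 pairs with PU.1 or BATF and is known in alternatively activated macrophages and in lymphocytes.

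After LPS, Irf7, Irf1 and Irf9 rose and Irf4 and Irf8 fell when the 4 arms were averaged. Irf7 rose 10.7-fold, Irf1 2.71-fold and Irf9 1.90-fold, while Irf4 fell to 0.585 and Irf8 to 0.732 of its saline level. Irf2, Irf3 and Irf5 did not pass the test. None of the 8 differed at an adjusted p under 0.05 between prenatal groups, between PLX and no PLX, or in any interaction with LPS.

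Promoter sequences are shown first for the 3 members in which a search of the bases before the start site found a known element. For the 8 members RefSeq lists 11 start sites (GRCm38.p6), and the window searched ran from 250 bases before to 50 after each, 300 bases in all, on both strands. The motifs were the interferon-stimulated response element (ISRE, GAAANNGAAA), the PU.1 and IRF composite element (EICE, GGAANNGAAA), the STAT-binding gamma-activated site (GAS, TTCNNNGAA) and the NF-kB consensus. Of 32851 windows of the same length, 3.44% held the ISRE, 2.72% the EICE, 8.3% the GAS and 8.46% the NF-kB consensus. Capitals mark the matches. Irf1 (chr11:53769909-53770013, plus strand) rose after LPS and holds a GAS starting 90 bases before the start site and an NF-kB match starting 13 bases before it. Irf8 (chr8:120736172-120736228, plus strand) fell and holds a pair of GAS matches, 171 and 153 bases before the start. Irf2 (chr8:46739495-46739544, plus strand) did not pass the test, and it was the 1 member with an ISRE match, which overlaps an EICE match and lies beside a GAS. The first bases of that window also lie in an exon of Gm16675, a non-coding gene on the opposite strand.
Irf1: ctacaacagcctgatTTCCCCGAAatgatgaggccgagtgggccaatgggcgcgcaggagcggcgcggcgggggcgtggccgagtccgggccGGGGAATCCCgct
Irf8: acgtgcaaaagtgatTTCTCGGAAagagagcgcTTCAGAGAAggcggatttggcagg
Irf2: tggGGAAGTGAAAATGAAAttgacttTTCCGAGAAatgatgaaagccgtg

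Irf2 also holds an NF-kB match starting 17 bases before its start site, of which no sequence is shown. In the windows of Irf3, Irf4, Irf5, Irf7 and Irf9 these letters were not found, which says nothing of the factors that bind there.

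All 8 are protein-coding genes. In GENCODE M21 coordinates on GRCm38, Irf1 lies at chr11:53770014-53778374, Irf2 at chr8:46739732-46847458, Irf3 at chr7:44997648-45002848, Irf4 at chr13:30749226-30766976, Irf5 at chr6:29526625-29541871, Irf8 at chr8:120736358-120756694 and Irf9 at chr14:55603571-55610030, all on the plus strand, and Irf7 at chr7:141262706-141266481 on the minus strand. Library preparation kept no strand, so reads of overlapping genes cannot be told apart. Gm17334 overlaps Irf1 on the opposite strand and differed by 1.10 ± 0.189 (log2, SE) after LPS, with an adjusted p of 7.58e-06. Rnf31, which overlaps Irf9, differed by 0.46 ± 0.0856 (edgeR adjusted p = 1.82e-05). What such overlaps add to the changes of the members was not tested. Gm20388 encloses Irf8 and differed by -0.45 ± 0.294 (adjusted p = 0.195, edgeR). Phrf1, which overlaps Irf7, stood at 0.11 ± 0.0749, and Tnpo3, which overlaps Irf5, at -0.03 ± 0.0775; neither passed.

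**Figure D1:**
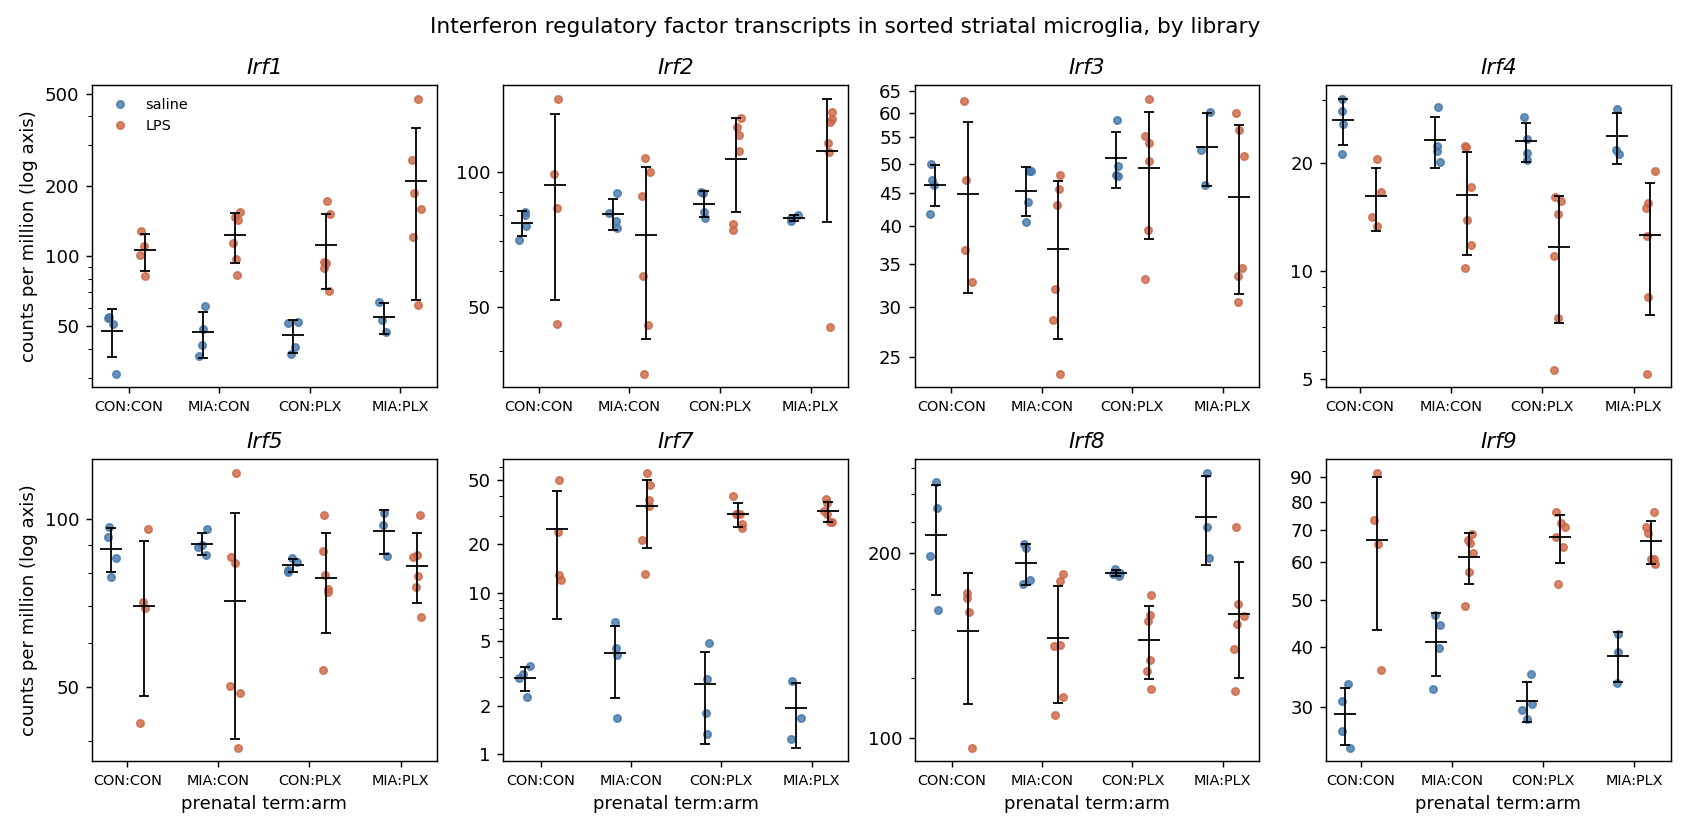
Level of each factor in every library used, in CPM on a log axis, by prenatal term and arm. Blue points are saline and orange points LPS libraries, bars are group means and error bars 1 SD. All 22 LPS libraries lie above all 15 saline libraries for Irf7, while the libraries of Irf2, Irf3 and Irf5 overlap.

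Levels are given as CPM (counts scaled to a common library size, the effective size by edgeR's trimmed mean of M-values, TMM). To compare genes with one another, CPM was divided by the length of the merged exons in kilobases. In the 15 saline libraries Irf5 had the highest median, 29.7 CPM per kb, followed by Irf8 at 27.8, and their ranges overlapped. Irf3 at 14.0, Irf1 at 12.9 and Irf2 at 10.8 formed a middle group whose neighbouring ranges overlapped. Irf9 stood at 6.21 and Irf4 at 4.55, and Irf7 was lowest at 0.773, its highest library at 1.74 CPM per kb. With the longest transcript as the length, Irf8 was first at 56.5 CPM per kb and Irf5 next at 38.5, and their ranges no longer overlapped. Irf1 at 24.0 then stood before Irf3 at 23.6, so the order within both groups depends on the gene model.

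In the 22 LPS libraries Irf1 moved to the first place, at a median of 29.5 CPM per kb of merged exon. Irf5 followed at 26.6, Irf8 at 21.9, Irf2 at 14.0, Irf3 at 12.9 and Irf9 at 12.3. Irf7 stood at 8.17, and Irf4 was now the lowest at 2.92. All neighbours in this order overlapped in range. With the longest transcript as the length, Irf8 at 44.5 CPM per kb stood before Irf5 at 34.5.

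**Figure D2:**
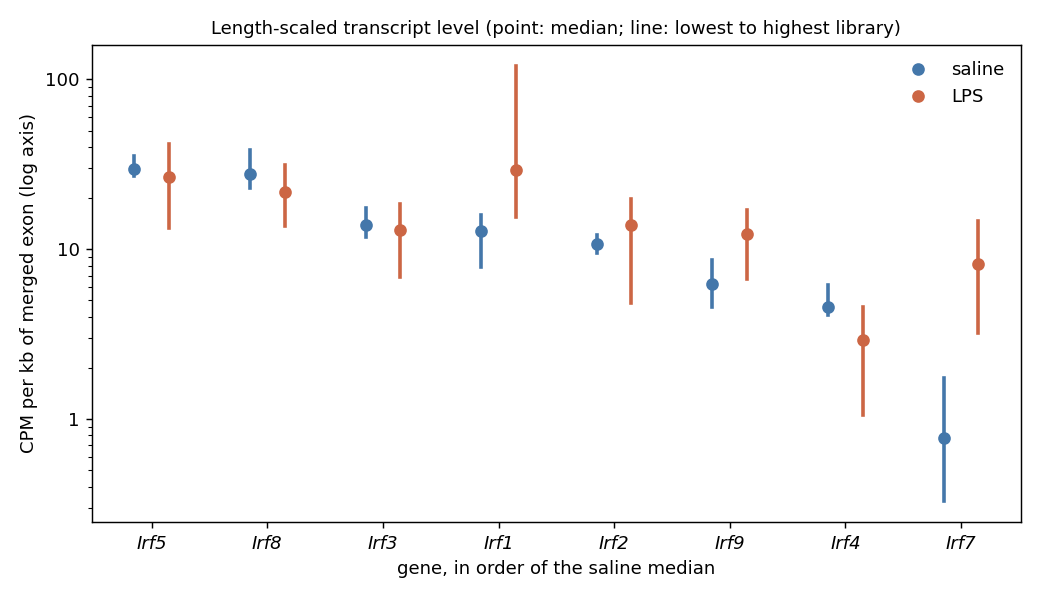
Length-scaled level of each factor, in CPM per kb of merged exon on a log axis. Points are medians and lines run from the lowest to the highest of the 15 saline (blue) or 22 LPS (orange) libraries; genes are ordered by the saline median. Irf7 is last in saline at 0.773 and Irf4 is last after LPS at 2.92.

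Before the responses, 3 LPS libraries need naming. MIA:CON LPS replicate 6 differed least of all 741 pairs of libraries from one left out, the library titled as MIA:PLX saline replicate 1. Their chi-square per degree of freedom was 1.519 over 11579 genes, and the next closest pair had 2.412. Its summed microglia markers, 11398 CPM, were the highest of the LPS libraries. CON:CON LPS replicate 4 and MIA:PLX LPS replicate 2 had the lowest shares of mitochondrial rRNA, 6.14% and 9.16%, and the highest TMM factors. Mitochondrial rRNA took 9.7% to 13.7% of counts in saline libraries and 6.14% to 19.3% after LPS. Its part in the results was not tested, although leaving its genes out of the fit moved no call of a member. The median of all 13420 genes tested stood at 0.03 (log2, LPS over saline, averaged over the arms) with TMM and at -0.13 by library totals alone. With TMM 53.8% of the called genes were higher, and by library totals 38.7%.

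Irf7 separated saline from LPS completely. In CON:CON its saline libraries held 3.51, 2.96, 3.12 and 2.27 CPM, and its LPS libraries 12.9, 23.7, 50.2 and 12.1 CPM. The highest of these was replicate 4, one of the libraries named above. In MIA:CON the saline values were 1.68, 6.58, 4.52 and 4.14 CPM, and LPS libraries ran from 13.03 through a median of 36.0 to 55.5 CPM.

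In both PLX arms the LPS libraries of Irf7 lay closer together. CON:PLX gave 1.80, 4.86, 1.34 and 2.92 CPM in saline and 25.1 to 40.0 CPM after LPS, with a median of 30.8. MIA:PLX gave 1.68, 2.86 and 1.25 CPM in saline and 27.3 to 38.1 CPM after LPS, with a median of 31.5. Among the 37 libraries used, the lowest LPS library, at 12.1 CPM, lay above the highest saline library, at 6.58.

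On the log2 scale Irf7 rose by 3.05 ± 0.429 (SE) in CON:CON, 3.09 ± 0.407 in MIA:CON, 3.49 ± 0.411 in CON:PLX and 4.05 ± 0.508 in MIA:PLX. By edgeR's quasi-likelihood test with Benjamini-Hochberg adjustment over 13420 genes, the largest adjusted p of the 4 was 2.8e-06. The average, 3.42 ± 0.220, had an adjusted p of 3.1e-15. Saline counts were small, down to 4 reads in a library, so the size of the fold is less certain than its direction: in MIA:PLX it ran from 2.18 to 4.39 over the alternative settings, at the lower end with both libraries whose titles say exclude put back.

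Irf1 rose in every arm. Its CON:CON libraries held 54.0, 55.0, 31.2 and 51.3 CPM in saline and 101, 111, 82.4 and 129 CPM after LPS, with no overlap. MIA:CON held 61.1, 37.3, 41.3 and 48.4 CPM in saline, and 82.6 to 154 CPM with a median of 129 after LPS. CON:PLX held 40.7, 38.003, 51.8 and 52.2 CPM in saline, and 71.1 to 172 CPM with a median of 94.2 after LPS.

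MIA:PLX was the arm in which Irf1 varied most and in which the groups overlapped. Saline libraries held 63.6, 47.2 and 53.1 CPM, and LPS libraries 61.4 to 475 CPM with a median of 174. The lowest LPS value was that of replicate 2, named above, and the highest that of replicate 5. The rises were 1.14 ± 0.355, 1.38 ± 0.336, 1.30 ± 0.333 and 1.94 ± 0.384 (log2, SE) in CON:CON, MIA:CON, CON:PLX and MIA:PLX, with edgeR adjusted p-values of 0.017, 0.00277, 0.00288 and 0.000312. In CON:CON the call was lost without saline replicate 3, the lowest library (0.99, adjusted p = 0.0677, against 0.00359 to 0.0677 over 18 alternatives).

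Irf9, the ISGF3 subunit, rose by less than Irf7 and Irf1 on average. CON:CON saline libraries held 33.4, 24.7, 30.9 and 26.8 CPM, and LPS libraries 73.4, 65.4, 91.9 and 35.8 CPM. In MIA:CON the saline libraries held 32.7, 44.3, 46.5 and 39.8 CPM and the LPS libraries 48.5 to 68.7 CPM, with a median of 64.1. The groups did not overlap in either arm, although the margin was small in both.

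In the PLX arms of Irf9 the gap between the highest saline and the lowest LPS library was wider. The PLX by LPS difference was -0.07 ± 0.246 (log2, SE) with prenatal CON and 0.20 ± 0.249 with prenatal MIA. Neither passed, so the arms are not shown to differ in their rise. CON:PLX held 28.4, 30.5, 35.1 and 29.5 CPM in saline and 54.0 to 76.0 CPM after LPS, with a median of 69.2. MIA:PLX held 38.9, 33.6 and 42.5 CPM in saline and 59.5 to 76.0 CPM after LPS, with a median of 64.9. The log2 rises were 1.20 ± 0.184 in CON:CON, 0.59 ± 0.170 in MIA:CON, 1.13 ± 0.171 in CON:PLX and 0.79 ± 0.189 in MIA:PLX (SE), and the largest edgeR adjusted p was 0.00953, in MIA:CON.

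Both arms with prenatal MIA lost this call under some settings. In MIA:CON it was lost with no filter on low counts (0.56, adjusted p = 0.0558), without saline replicate 1 (0.50, adjusted p = 0.0526) and by library totals (0.38, adjusted p = 0.231), over alternatives whose adjusted p began at 0.00204. In MIA:PLX it was lost by library totals (0.66, adjusted p = 0.0615), the highest over its alternatives, which began at 8.51e-05. These tests were made by edgeR.

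Irf4 fell from a low level. CON:CON held 28.0, 30.3, 21.2 and 25.8 CPM in saline and 14.2, 13.4, 16.6 and 20.6 CPM after LPS, without overlap. In MIA:CON saline libraries held 21.7, 20.2, 28.7 and 22.3 CPM and LPS libraries 10.2 to 22.4 CPM, with a median of 15.5, and here 2 LPS libraries lay within the saline range.

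With PLX, all LPS libraries of Irf4 lay below all saline libraries of their arm. CON:PLX held 21.4, 27.0, 23.5 and 20.4 CPM in saline and 5.31 to 16.1 CPM after LPS, with a median of 12.8. MIA:PLX held 28.3, 21.8 and 21.3 CPM in saline and 5.17 to 19.0 CPM after LPS, with a median of 13.8.

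Irf4 stood at -0.70 ± 0.295 (log2, SE) in CON:CON and -0.50 ± 0.272 in MIA:CON, neither of which passed (edgeR adjusted p = 0.080 and 0.174), although DESeq2 passed the first (adjusted p = 0.0434, against 0.0424 to 0.17 over its alternatives). It fell by 0.99 ± 0.268 in CON:PLX (adjusted p = 0.00435) and by 0.90 ± 0.297 in MIA:PLX (adjusted p = 0.0257). The average over the arms fell by 0.77 ± 0.142, with an adjusted p of 1.7e-05. In MIA:PLX the call was lost without LPS replicate 4 (-0.73, adjusted p = 0.0621) or saline replicate 2 (-0.77, adjusted p = 0.135), over alternatives from 0.00392 to 0.135. The PLX by LPS difference for Irf4 was -0.29 ± 0.399 with prenatal CON and -0.40 ± 0.408 with prenatal MIA and did not pass, so the arms are not shown to differ.

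Irf8, the partner of PU.1 in microglia, fell on average to 0.732 of its saline level. CON:CON held 261, 237, 162 and 198 CPM in saline and 96.4, 169, 172 and 160.5 CPM after LPS. MIA:CON held 207, 181, 179 and 204 CPM in saline and 109 to 185 CPM after LPS, with a median of 141. In both arms 2 LPS libraries lay within the saline range.

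The saline libraries of CON:PLX were nearly level for Irf8, at 186, 185, 188 and 183 CPM, and its LPS libraries lay below them at 120.2 to 171 CPM with a median of 145. MIA:PLX held 271, 196 and 221 CPM in saline and 119 to 221 CPM after LPS, with a median of 156. Irf8 fell by 0.52 ± 0.190 in CON:CON (edgeR adjusted p = 0.0425) and by 0.52 ± 0.186 in MIA:PLX (adjusted p = 0.0399). It stood at -0.40 ± 0.172 in MIA:CON (adjusted p = 0.0816) and at -0.36 ± 0.171 in CON:PLX (adjusted p = 0.109), and the average fell by 0.45 ± 0.0900 (adjusted p = 5.86e-05). The single-arm calls sat near the threshold: over the alternatives the adjusted p ran from 0.0142 to 0.197 in CON:CON and from 0.00255 to 0.218 in MIA:PLX, whereas the average passed in all 46. The call held in 9 of 18 alternatives in CON:CON and in 11 of 19 in MIA:PLX. Among the losses, it was lost in CON:CON without LPS replicate 1 or without saline replicate 1, 2 or 4, and in MIA:PLX without LPS replicate 1, 5 or 6 or without saline replicate 2 or 4. With no filter on low counts or with only the compared groups fitted it was lost in both arms, and with limma voom or library totals in CON:CON.

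Without MIA:CON LPS replicate 6, Irf8 also fell in MIA:CON, by 0.47 with an edgeR adjusted p of 0.0392, over alternatives from 0.0332 to 0.175, and it did so too without replicate 3 (adjusted p = 0.0451). With replicate 6 left out, Irf7 in that arm stood at 3.20, Irf1 at 1.48 and Irf9 at 0.65 on the log2 scale, and all passed.

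**Figure D3:**
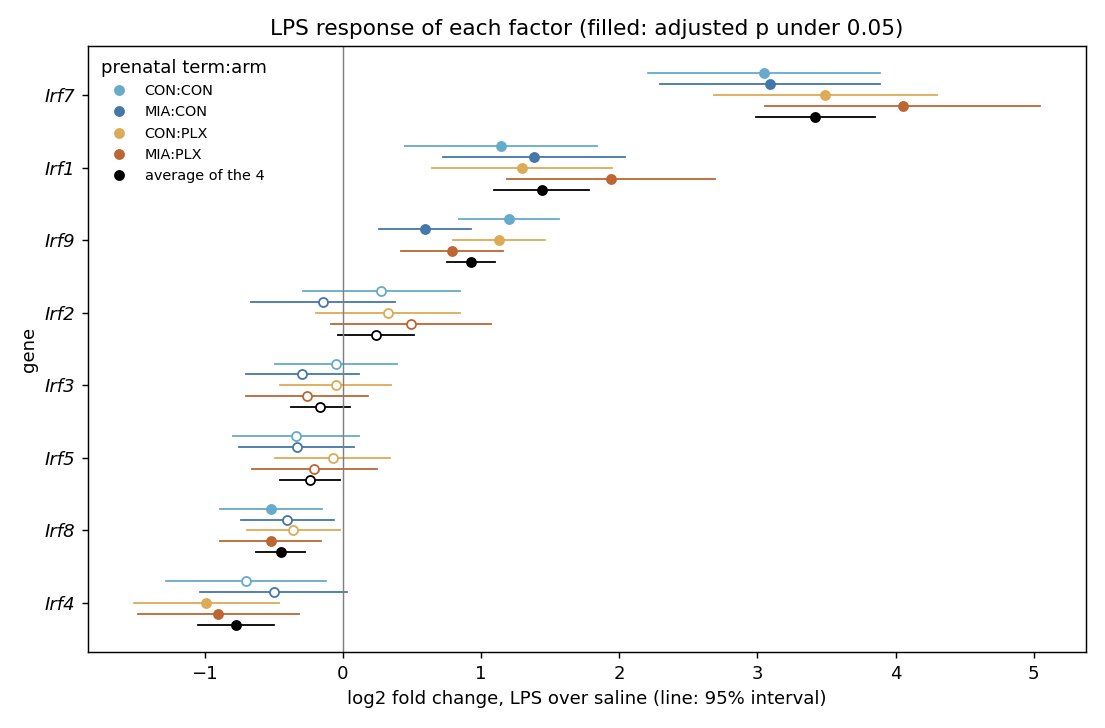
LPS over saline for each factor, as log2 fold change on the horizontal axis, in the 4 arms and their average. Lines are 95% intervals (1.96 SE each way) and filled points passed an adjusted p under 0.05. The points of Irf7, Irf1 and Irf9 lie right of 0 in every arm, and those of Irf8 and Irf4 left of it. The line of Irf4 crosses 0 in MIA:CON. The lines of Irf2, Irf3 and Irf5 cross it in every arm, though the line of the Irf5 average does not.

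Irf2, the antagonist of Irf1, spread widely after LPS. Its 15 saline libraries held 70.3 to 90.1 CPM, and its 22 LPS libraries 35.5 to 145 CPM, of which 13 lay above and 5 below the saline range. The average difference was 0.24 ± 0.140 (log2, SE; edgeR adjusted p = 0.146), and limma voom with quality weights passed it (0.27, adjusted p = 0.0133, against 0.0133 to 0.659 over 46 alternatives), as it did in CON:PLX and MIA:PLX. Within LPS groups the median coefficient of variation of Irf2 was 35.8%, against 6.59% within saline groups. It was also higher after LPS for Irf1, Irf3, Irf4, Irf5 and Irf8, with Irf4 at 35.4% against 15.5%. For Irf7 and Irf9 it was lower after LPS.

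Irf3, the factor present before stimulation, held 40.7 to 60.2 CPM in saline and 23.6 to 63.2 CPM after LPS. Its average difference was -0.16 ± 0.108 (edgeR adjusted p = 0.200). It passed without the 3 LPS libraries named above (-0.26, adjusted p = 0.033) and by library totals (-0.31, adjusted p = 0.0479), against 0.033 to 0.324 over the 46 alternatives.

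Irf5, the cytokine activator, held 78.7 to 102 CPM in saline and 38.97 to 121 CPM after LPS, with 11 LPS libraries below the saline range and 1 above. Its average difference of -0.24 ± 0.111 missed the threshold (edgeR adjusted p = 0.0662) and passed in 8 of 46 alternatives, with DESeq2 at -0.27 and an adjusted p of 0.0293, against 0.00287 to 0.124 over all of them. Among these were the fits without CON:CON LPS replicate 5, CON:PLX LPS replicate 6, or MIA:CON LPS replicate 2 or 3. For Irf2, Irf3 and Irf5 a missed threshold does not show that the level was the same. The intervals of the averages, 1.96 SE each way, ran from -0.04 to 0.51 for Irf2, from -0.37 to 0.05 for Irf3 and from -0.46 to -0.02 for Irf5.

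Many genes passed in the LPS comparisons. Averaged over the arms, 3 of 8 members rose and 2 fell, where 30.3% of 13420 genes rose and 26% fell. In CON:CON 3 rose and 1 fell (all genes 13.7% and 9.84%), and in MIA:CON 3 rose and 0 fell (14.5% and 10.9%). In CON:PLX 3 rose and 1 fell (17.5% and 14%), and in MIA:PLX 3 rose and 2 fell (11.8% and 10.4%). The median of the 8 averages was 0.04 (log2), against 0.03 over all genes. With the 3 named LPS libraries left out together, 3 members rose and 3 fell on average, where 4024 of all genes rose and 3719 fell.

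The prenatal and PLX comparisons ask whether the level or the LPS response of a factor differed with MIA or with PLX. Across the 12 such contrasts, 0 of 96 tests on members passed edgeR at an adjusted p under 0.05, and 5 had an unadjusted p under 0.05. DESeq2 and limma voom also called 0 members. Of all genes, 0.0149% were called for MIA against CON after LPS with PLX and 0.00745% for PLX against none after LPS with prenatal CON. The other 10 contrasts called 0% of genes by edgeR, and between 125 and 1252 genes had an unadjusted p under 0.05.

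Irf9 in saline without PLX was the first of the 5. The MIA:CON libraries, at 32.7 to 46.5 CPM, overlapped the CON:CON libraries, at 24.7 to 33.4 CPM, by 1 library, and the difference was 0.49 ± 0.185 (log2, SE; edgeR adjusted p = 1). The LPS response of Irf9 without PLX was lower with MIA by 0.61 ± 0.247 (edgeR adjusted p = 1), and both contrasts use the same saline libraries.

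Irf1 after LPS with PLX was 0.91 ± 0.285 higher with MIA (edgeR adjusted p = 0.432). It was also 0.77 ± 0.285 higher with PLX than without in MIA mice after LPS (edgeR adjusted p = 0.409). The same 6 MIA:PLX LPS libraries, with their range of 61.4 to 475 CPM, enter both. In that second contrast Irf2 was 0.61 ± 0.239 higher (edgeR adjusted p = 0.446).

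Intervals for the remaining contrasts were wide for the members that responded most. For Irf7 the MIA by LPS difference without PLX was 0.04, with an interval of 1.96 SE each way from -1.22 to 1.31, and with PLX it was 0.56, from -0.70 to 1.83. The PLX by LPS difference of Irf7 was 0.45 with prenatal CON and 0.96 with prenatal MIA, the latter from -0.30 to 2.22. This latter difference includes the saline libraries of MIA mice. Among them Irf7 stood at -1.08 ± 0.570 (log2, SE) for PLX against none, which did not pass. For Irf8 the MIA by LPS differences, 0.12 without PLX and -0.16 with it, lay within -0.39 to 0.62 and -0.66 to 0.34.

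**Figure D4:**
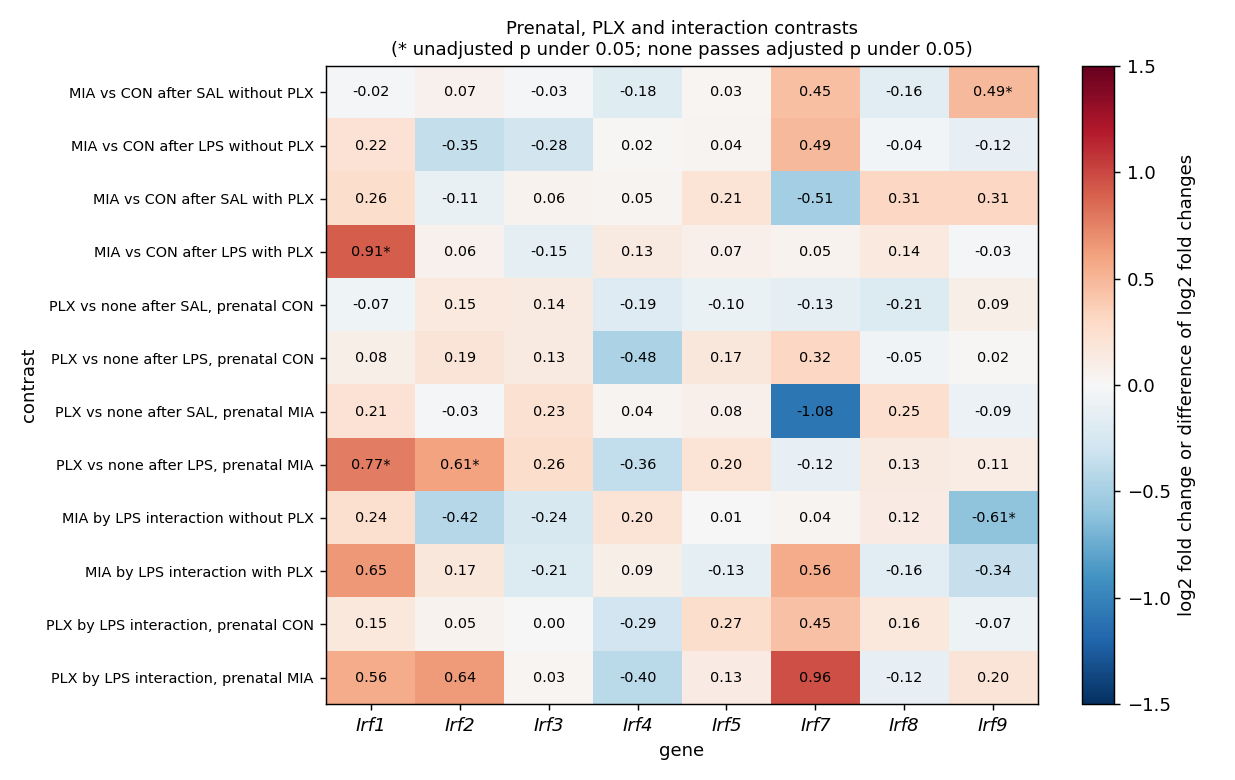
Log2 fold changes, or differences of log2 fold changes, of the 8 factors (columns) in the 12 prenatal, PLX and interaction contrasts (rows). Red is higher and blue lower, and a star marks the 5 values with an unadjusted p under 0.05. The largest positive value between a pair of groups is that of Irf1 for MIA against CON after LPS with PLX, 0.91. The largest negative value is that of Irf7 for PLX against none after saline with prenatal MIA, -1.08.

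Genes that act before and after the factors were read from 7 lists. The lists were chosen for known roles, but with earlier results of these data known. Their counts are therefore a description and no independent support. Over all genes tested, 30.3% rose and 26% fell averaged over the arms. Among 14 kinases and adaptors that activate the factors, 6 rose and 2 fell averaged over the arms, with a median of 0.13 (log2) against 0.03 over all genes tested. Irak1, a kinase of the MyD88 pathway, rose by 0.63 ± 0.0879. Tbk1, the kinase of Irf3 and Irf7, rose by 0.65 ± 0.127. The adaptors Ticam1 and Myd88 rose by 0.42 ± 0.0932 and 0.55 ± 0.130, while the adaptor Mavs stood at -0.09 ± 0.207 and did not pass. The 2 that fell, named after their values were seen, were Tmem173, which encodes STING, by 0.98 ± 0.235, and Traf3, by 0.41 ± 0.154.

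Of 9 interferon receptor and ISGF3 genes 4 rose and 0 fell, with a median of 0.19, where 30.3% of all genes rose. Stat2, a partner of Irf9, rose by 2.54 ± 0.156, compared with 0.93 ± 0.0895 for Irf9. Ifngr1, a chain of the interferon gamma receptor, rose by 0.34 ± 0.0794 and the kinase Jak2 by 0.22 ± 0.0936. Ifnar1, a chain of the type I interferon receptor, stood at 0.05 ± 0.105. In single arms 2, 3, 2 and 2 of the 9 rose in CON:CON, MIA:CON, CON:PLX and MIA:PLX, where 13.7%, 14.5%, 17.5% and 11.8% of all genes did.

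Among 10 partner and co-regulator genes 9 were tested, 6 rose and 2 fell, with a median of 0.43, where 30.3% of all genes rose and 26% fell. Runx1 rose by 0.72 ± 0.0919, Batf, a partner of Irf4 and Irf8, by 1.82 ± 0.270, Batf2 by 2.15 ± 0.475 and Trim21, a ubiquitin ligase, by 0.55 ± 0.139. The Irf2 co-regulator Irf2bp2 stood at 0.07 ± 0.0862. Batf3 and Irf2bp1, named after their values were seen, fell by 0.81 ± 0.272 and 0.66 ± 0.233.

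The 18 genes of the ISRE target list all rose on average, with a median of 3.08 against 0.03 over all genes tested. Rtp4 rose by 3.58 ± 0.231, Zbp1, a nucleic acid sensor, by 4.82 ± 0.308, Xaf1 by 2.31 ± 0.167 and Isg15, a ubiquitin-like modifier, by 3.18 ± 0.252. The member of the list with the largest p, Ifit3, rose by 1.78 ± 0.309. In CON:CON and in MIA:PLX 16 of the 18 rose, where 13.7% and 11.8% of all genes did. In MIA:CON and CON:PLX 18 rose, where 14.5% and 17.5% of all genes did.

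Of 12 genes known as targets of Irf1 and interferon gamma, 11 were tested, 8 rose and 1 fell, with a median of 1.37. Over all genes 30.3% rose and 26% fell. Nlrc5, which activates MHC class I genes, rose by 3.51 ± 0.236 and the peptide transporter gene Tap1 by 1.60 ± 0.135. Gbp2, an interferon-induced GTPase, rose by 4.37 ± 0.320 and Cd274, which encodes PD-L1, by 2.87 ± 0.249. Socs1, the feedback inhibitor of JAK kinases, stood at -0.29 ± 0.407 and did not pass. The 1 that fell, named after its value was seen, was the cytokine gene Il15, by 1.38 ± 0.248.

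For Irf5, 6 of 8 linked genes were tested and 6 rose, with a median of 3.63, where 30.3% of all genes rose. Here and in the other lists, the filter keeps a gene with enough counts in LPS libraries alone. Such a gene can hardly fall, so a count of rises may be set in part by the filter. The cytokine genes Tnf, Il6, Il1b and Il12b rose by 3.46 ± 0.411, 2.44 ± 0.397, 3.81 ± 0.655 and 5.48 ± 0.833, and the chemokine gene Ccl5 by 7.11 ± 0.622. For Irf4, 4 of 5 linked genes were tested and 3 rose, with a median of 1.503, opposite in sign to Irf4 itself. These were Il4ra, the interleukin 4 receptor chain, by 1.83 ± 0.102, Arg1, arginase, by 1.95 ± 0.244 and the histone demethylase gene Kdm6b by 1.17 ± 0.168, while the mannose receptor gene Mrc1 stood at -0.30 ± 0.318. In the 12 prenatal, PLX and interaction contrasts 0 genes of the 7 lists passed edgeR.

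**Figure D5:**
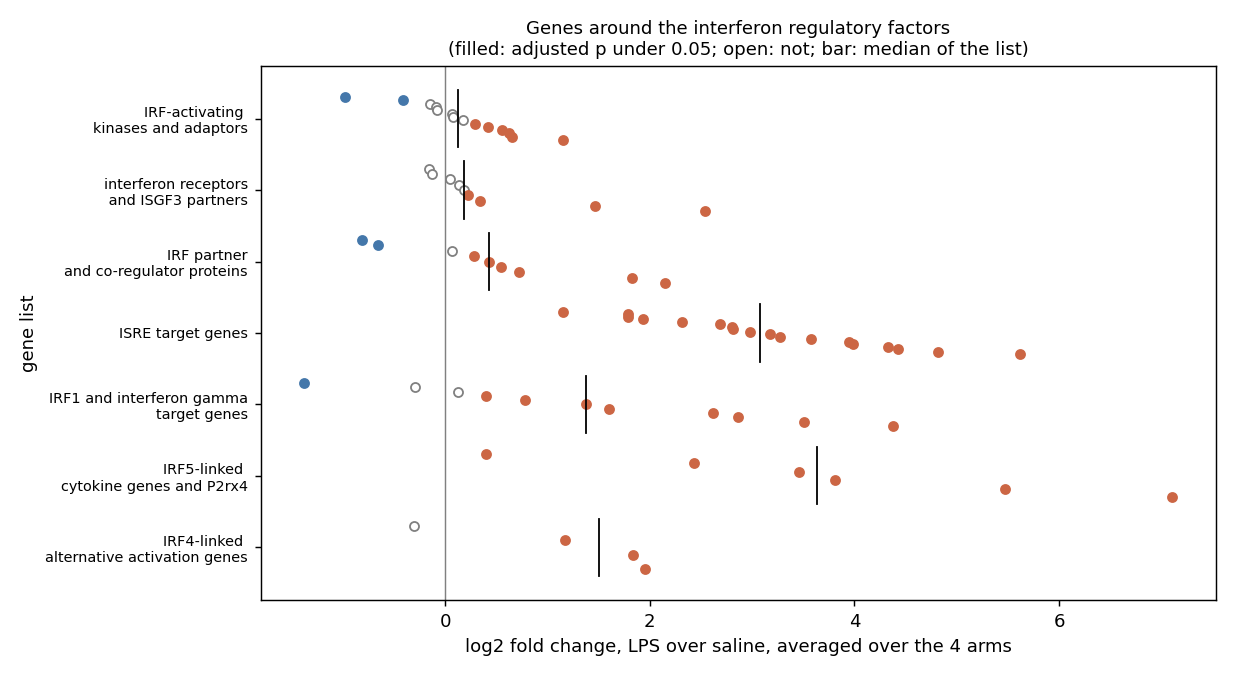
LPS over saline for each gene of the 7 lists, as log2 fold change averaged over the 4 arms. Orange points rose and blue points fell at an adjusted p under 0.05, open points did not pass, and the bar is the median of the list. The 18 ISRE genes all lie right of 0, with a median of 3.08.

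The genes whose levels ran most like each member were found by Pearson's r of log2 CPM over the 37 libraries, among 6072 or 6073 genes. For Irf7 these were Treml2 (0.949), Zbp1 (0.945) and Xaf1 (0.945), and for Irf9 Rtp4 (0.922), Stat2 (0.915) and Irgm1 (0.912). For Irf1 they were Ier3 (0.921), Zfand5 (0.913) and Osm (0.911). The nearest to Irf8 was Tfe3 (0.872), to Irf2 Nfatc2 (0.881), to Irf4 Narf (0.838) and to Irf3 Zfp65 (0.805). These values share the step from saline to LPS and each library's scaling. Over deviations from the group means, which leave that step out, Xaf1 was nearest to Irf7 (0.641), Irgm1 to Irf9 (0.729), Ier3 to Irf1 (0.768) and Map3k1 to Irf2 (0.932).

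Among the LPS libraries several members also deviated together from their group means. Of 28 pairs over 22 libraries, Irf2 and Irf5 had a Pearson r of 0.749 (permutation p = 0.00054, adjusted 0.0151) and a Spearman rho of 0.691 (permutation p = 0.00545, adjusted 0.0505). Irf2 and Irf8 had an r of 0.734 (permutation p = 0.00142, adjusted 0.0199) and a rho of 0.657 (permutation p = 0.00426, adjusted 0.0505). Without the 2 libraries farthest out on Irf2, r was 0.783 and 0.649. No other pair passed by either measure, and none passed by rho.

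In the 15 saline libraries 28 pairs were read in the same way. Irf1 and Irf8 had a Pearson r of 0.781 (permutation p = 0.00071, adjusted 0.0199) and a Spearman rho of 0.782 (permutation p = 0.00238, adjusted 0.0666), and r was 0.636 without the 2 libraries farthest out on Irf1. Members of a pair share library depth and scaling, whose part was not tested.

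The summed markers of monocytes and neutrophils had higher medians after LPS than in saline, and those of microglia a lower one. All 9 microglia markers were present in every group, and their summed level was 12548 to 15598 CPM in saline and 3427 to 11398 CPM after LPS; P2ry12, a target of the sort, fell by 2.90 on the log2 scale. In bulk RNA, fewer cells of a type and less RNA per cell cannot be told apart. The 7 monocyte markers summed to 6.87 to 10.4 CPM in CON:CON saline and 25.2 to 153 after LPS, to 4.39 to 11.9 and 29.0 to 162 in MIA:CON, to 10.6 to 22.5 and 57.8 to 641 in CON:PLX, and to 8.69 to 13.4 and 116 to 310.0 in MIA:PLX. Ly6c2 was at 0 in the saline groups other than CON:PLX and Chil3 in MIA:CON saline.

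The 8 neutrophil markers summed to 0 to 2.63 CPM in CON:CON saline and 5.36 to 63.7 after LPS, to 0.318 to 7.94 and 9.61 to 137 in MIA:CON, to 0 to 101 and 33.0 to 44.0 in CON:PLX, and to 0.357 to 7.50 and 3.12 to 111 in MIA:PLX. In CON:PLX saline the 101 CPM was that of replicate 2, while replicates 1, 3 and 4 held 0.200, 0 and 3.24 CPM. Mmp8, Ly6g and Retnlg were at 0 in the saline groups other than CON:PLX, Cxcr2 in CON:CON saline and Ly6g also in MIA:PLX after LPS. Their part in the changes of Irf7, Irf1 and Irf9, which monocytes and neutrophils also express, was not tested.

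Markers of the lymphoid and dendritic cells in which Irf4 and Irf8 are also known can be set beside Irf4. Irf4 held 20.2 to 30.3 CPM in saline and 5.17 to 22.4 CPM after LPS. The part of these cells in the changes of Irf4 and Irf8 was not tested. The 6 B and plasma cell markers summed to 6.87 to 14.0 CPM in saline, with a median of 9.87. After LPS they summed to 1.55 to 10.7 CPM, with a median of 5.72. Ms4a1 was at 0 in 6 of the 8 groups. Cd79b, the only B cell marker past the filter, differed by -0.88 (log2, edgeR adjusted p = 0.000108). The 5 dendritic cell markers summed to 6.50 to 15.4 CPM in saline and 5.69 to 20.1 after LPS, and the 5 T and NK cell markers reached at most 1.07 CPM. The 6 border-associated macrophage markers summed to 29.9 to 98.5 CPM in saline and 7.70 to 219 after LPS. Endothelial markers had a median sum of 23.2 CPM in saline and 8.76 after LPS, and astrocyte markers 139 and 114. Those of neurons stood at 18.3 and 17.9 CPM, and those of oligodendrocytes at 46.0 and 48.3.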

How the data were processed

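Total RNA of sorted striatal microglia was amplified without strand information, per the labels' protocols. The authors' deposited table holds estimated counts per Ensembl gene, not all whole. The submitters' processing notes name STAR, RSEM and DESeq2, without versions or roles. The build and annotation were not given in the sources used here.

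Counts were rounded, filtered (filterByExpr, minimum 10, total 15) and scaled by TMM, and 13420 genes were fitted with 1 mean per group over 37 libraries in edgeR 4.0.16 (glmQLFit and glmQLFTest, robust, two-sided; R 4.3.3). A gene was called at a Benjamini-Hochberg adjusted p under 0.05. The fit was tested on simulated data. Alternatives used DESeq2 1.42.0, limma 3.58.1, other scaling and filters, and left-out libraries. The labels give no batch. Symbols come from GENCODE M21, promoters from RefSeq.

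The members and gene lists were chosen with earlier results of these data known. The text names all 8 members and, from each list, the 4 genes with the smallest p for the averaged LPS response and the one with the largest; other names are said to be chosen afterwards. Genes alike in pattern are the 3 with the highest r among genes with an average log2 CPM of at least 4. The values of some genes that these rules name are not reported here.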

Additional observations from a re-analysis of the deposited data

Results flagged for a closer look

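Of 56 sets of member and group with 4 or more libraries, 4 held a value that stood far from the others, where chance gives about 1 in 20. Irf1 in CON:CON saline replicate 3 was low at 31.2 CPM, Irf2 in MIA:PLX LPS replicate 5 was low at 45.0 CPM, Irf3 in CON:PLX saline replicate 1 was high at 58.5 CPM, and Irf8 in CON:CON LPS replicate 1 was low at 96.4 CPM. MIA:PLX LPS replicate 5, low for Irf2, is also the library with the highest Irf1, at 475 CPM.

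The 2 libraries whose titles say exclude are in no group of the main comparisons, and each held at least 1 value above every saline library used. The one titled MIA:PLX saline replicate 1 held Irf7 at 22.0 CPM, within the range of the LPS libraries, Irf1 at 78.6, Irf2 at 92.4 and Irf9 at 47.1 CPM. The one titled CON:CON LPS replicate 3 held Irf2 at 123.9 CPM, while its Irf7, at 2.80 CPM, lay within the saline range.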

How the results depend on the processing

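Each member's LPS response was recomputed under 18 to 46 alternatives, of which library totals without TMM and leaving out 3 LPS libraries together were chosen after seeing the data. Irf7 kept its direction and call in all of them in every arm, and Irf1, Irf4, Irf8 and Irf9 did so for the average. In the prenatal, PLX and interaction contrasts 0 of 268 refits called a member. Leaving out single libraries, the number of members called ran from 5 to 6 for the average, 3 to 4 in CON:CON, 2 to 4 in MIA:CON, 4 to 4 in CON:PLX and 3 to 5 in MIA:PLX, where 3 came without saline replicate 2. Directions turned only for members that had not passed. Irf3 in CON:CON turned to 0.0565 with the replicate block and Irf2 in CON:CON to -0.0220 without the 3 libraries. Without single libraries, Irf3 ran from -0.258 to 0.0733 and Irf2 from -0.0218 to 0.504 in CON:CON, and in CON:PLX Irf3 ran from -0.134 to 0.0407 and Irf5 from -0.160 to 0.0160.

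The labels do not say that replicate numbers pair the groups. Over 14 pairs of LPS and saline libraries with the same number, deviations correlated by -0.07 to 0.14, and 3 of 14 LPS libraries correlated best with their own number. With the replicate block, 5 members were called for the average, where 3825 of all genes rose and 3385 fell. In CON:CON, MIA:CON, CON:PLX and MIA:PLX 3, 3, 4 and 4 members were called. In these arms the count of all genes called stayed within 1.5 times that of the main fit. The Irf8 call was then lost in CON:CON (adjusted p = 0.0524) and MIA:PLX (adjusted p = 0.0676). Over all genes, 0 and 2 were called by edgeR for MIA against CON after LPS without and with PLX, and 7 and 14 by DESeq2; for PLX against none after LPS with prenatal MIA these counts were 0 and 25, and 16 without MIA:PLX LPS replicate 2. Fitting only the compared groups called 136 genes, against 0, for MIA against CON after saline with PLX, and 2228, against 3403, for LPS in MIA:CON. Limma voom called 6432 and 4596 genes for LPS in CON:PLX and MIA:PLX, against 4228 and 2990. The other counts that moved by over 1.5 times stayed at 10 or fewer. Counting depth limits Irf7 most, since 1 saline library held 4 reads.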
